A study of Mus musculus with 6 samples.

Results

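Mouse neuro2a (N2a) cells, a neuroblastoma line, were examined for 10 genes listed as chromatin regulators of the choice of clustered protocadherin promoters. Such a role was not tested here for any of them. The genes were chosen by name and function, with earlier results of these data known. The choice holds the silencing factors Smchd1, Setdb1, Trim28 and Wiz, the DNA methyltransferases Dnmt1, Dnmt3a and Dnmt3b, and the looping factors Ctcf, Rad21 and Wapl. They are 10 of 16490 genes tested, and 13 of the 42126 probes tested read them. Control cells are labelled Vector, knockdown cells carried miR RNAi constructs against both Nfya and Nfyc (labelled YAYC), and each group had 3 arrays. The study's methods name both an empty vector and a non-targeting miR vector as controls. The label Vector does not itself state which was used here. Per the study's methods the vector was pcDNA6.2-GW/EmGFP-miR, introduced by lipid transfection and followed by a short incubation. The RNA came from the transfected population, and no sort for transfected cells is stated for these arrays. In such bulk RNA, fewer cells expressing a gene and less RNA per cell cannot be told apart. Nothing in the labels says whether the arrays of a group came from separate cultures, so the tests measure the spread between arrays.

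Clustered protocadherins are cell-surface adhesion proteins. Each neuron transcribes a small set of their promoters, and this choice gives neurons a surface identity. CTCF and cohesin fold chosen promoters towards distant enhancers, promoters with DNA methylation do not bind CTCF and stay silent, and SMCHD1 and the SETDB1 machinery hold the arrays of genes down. NF-Y, the factor knocked down here, is a trimer of NF-YA, NF-YB and NF-YC that binds CCAAT letters in promoters, and the comparison asks whether the RNA of these regulators differed when NF-Y was reduced.

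None of the 10 regulators was called lower and none was called higher. A call needed a limma adjusted p below 0.05 and a fold above 1.5, which 5.0% of all genes met as lower and 3.91% met as higher. At the adjusted p alone, 3 of 10 passed: Dnmt1 was lower, and Trim28 and Wiz were higher. The corresponding shares of all genes were 15.8% lower and 15.7% higher, so 3 of 10 lay near the 31.5% of all genes that passed in either direction. At a fold above 1.2 none of the 10 was called, while 12.9% of all genes were lower and 12.4% higher. The median change of the 10 genes was 0.12 on the log2 scale, against 0.01 for all genes. The 95% interval of every member excluded a 1.5-fold change in either direction, which was also the case for 65.1% of all genes.

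The labels were checked first on the targeted genes. Normalized Nfya signal (log2 intensity minus the array's 75th percentile) changed by -0.76 (SE 0.055, limma adjusted p = 0.00128) and Nfyc by -1.81 (SE 0.045, limma adjusted p = 0.000323), and for both genes all knockdown arrays lay below all control arrays. Nfyb, the subunit that was not targeted, was higher by 0.83 (SE 0.060, limma adjusted p = 0.00131). The 75th percentile of intensity ran from 718.1 to 754.3 over the arrays, 61.9% to 66.2% of spots were well above background, and no spot was saturated. Arrays correlated at r = 0.989 to 0.994 within groups and at 0.987 to 0.99 between groups over 42126 probes. All arrays shared 1 slide, where row 1 held the 3 control arrays and knockdown replicate 1 and row 2 held knockdown replicates 2 and 3. Of 15 neuroblast and neuron markers, 13 were well above background on all 6 arrays, while Dcx and Nefl were so on none. Markers of other cell types also passed: 4 of 5 oligodendrocyte, 4 of 5 fibroblast, 3 of 4 immune, 2 of 5 astrocyte and 2 of 5 endothelial. This flag alone therefore does not single out neuronal cells. The highest summed intensity of those other lists was 10300 to 11500 on control arrays, for the endothelial markers. For the neuroblast and neuron markers it ran from 213000 to 227000 on control arrays and from 186000 to 199000 on knockdown arrays. The part of that difference in the results below was not tested.

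All 13 member probes were well above background on all 6 arrays and all passed the filter on dim probes, so every member has a measured value in both groups. Values below are given for replicates 1, 2 and 3 of each group in that order. A gene with several probes was read from its brightest probe. Signals of different probes are not on a common scale, so levels are compared only between arrays for the same probe.

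**Figure D1:**
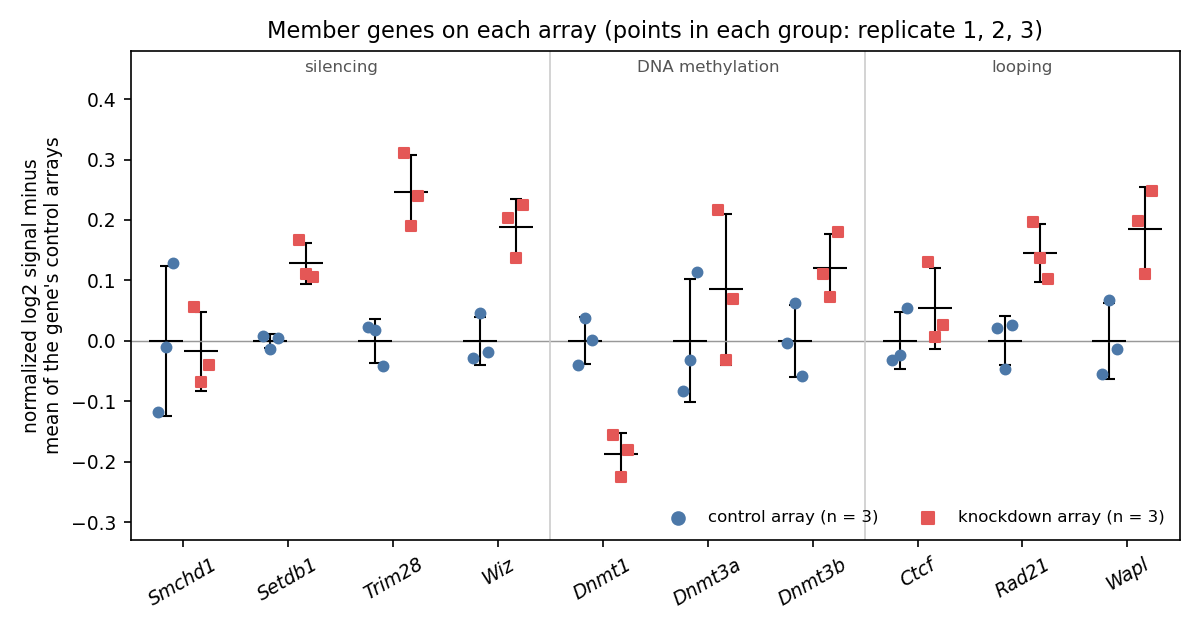
Normalized log2 signal of each of the 10 genes on each array, with the mean of that gene's control arrays set to 0. Circles are control arrays and squares are knockdown arrays (3 each), and bars give the group mean with its SD. The groups do not overlap for Setdb1, Trim28, Wiz, Dnmt3b, Rad21 and Wapl, which are higher in knockdown, and for Dnmt1, which is lower.

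Among the silencing factors, Trim28 and Wiz passed the adjusted p, Setdb1 did not, and Smchd1 showed overlapping groups. TRIM28, also called KAP1, is the corepressor that KRAB zinc finger proteins bring to DNA and that recruits SETDB1. Trim28 signal (probe A_51_P323299) was 5.52, 5.51 and 5.45 on control arrays and 5.80, 5.68 and 5.73 on knockdown arrays. Every knockdown array lay above every control array. The change was 0.25 (SE 0.051, 95% interval 0.12 to 0.38, limma adjusted p = 0.0254), or 18.7% on the linear scale. This was the largest change among the 10 genes as read from their brightest probes.

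WIZ is a zinc finger protein of the GLP and G9a complex that methylates lysine 9 of histone H3, and it also binds DNA at loop anchors. Wiz signal (probe A_55_P2121936) was 3.35, 3.43 and 3.36 on control arrays and 3.58, 3.52 and 3.60 on knockdown arrays. The groups were separate, with knockdown replicate 2 nearest to the controls. Wiz differed by 0.19 (SE 0.048, 95% interval 0.07 to 0.31, limma adjusted p = 0.0466), which is 13.9% on the linear scale. It missed the adjusted p with the deposited series matrix values (limma adjusted p = 0.0517). It also missed when each gene was the mean of its probes (limma adjusted p = 0.053).

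SETDB1 is the methyltransferase that places H3K9 trimethylation at sites marked by TRIM28. Setdb1 signal (probe A_55_P1965635) was 1.33, 1.31 and 1.33 on control arrays and 1.49, 1.43 and 1.43 on knockdown arrays. The control arrays lay within an SD of 0.012, the tightest spread among the brightest probes of the members in either group, and all knockdown arrays lay above them. The change of 0.13 (SE 0.041, 95% interval 0.02 to 0.23) nevertheless missed the threshold over all probes at a limma adjusted p = 0.0863. Setdb1 passed in 2 of 19 other settings, quantile normalization (limma adjusted p = 0.0243) and an intensity trend (limma adjusted p = 0.0282). Of all genes, 33.8% and 42% passed there.

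SMCHD1 is a noncanonical SMC protein that keeps the inactive X chromosome and clustered gene families silent. Smchd1 signal (probe A_51_P468599) was 4.06, 4.17 and 4.31 on control arrays and 4.24, 4.11 and 4.14 on knockdown arrays, so the knockdown values fell inside the control range. The difference was -0.02 (SE 0.080, 95% interval -0.22 to 0.19, limma adjusted p = 0.90). A further probe (A_66_P116804) read 2.28, 2.24 and 2.27 on control arrays and 2.24, 2.25 and 2.18 on knockdown arrays, again with overlap, and differed by -0.04 (SE 0.043, 95% interval -0.15 to 0.07, limma adjusted p = 0.559).

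Of the DNA methyltransferases, Dnmt1 passed the adjusted p and Dnmt3a and the brightest probe of Dnmt3b did not. DNMT1 is the maintenance enzyme that copies methylation after replication. Dnmt1 signal (probe A_51_P195573) was 1.79, 1.87 and 1.83 on control arrays and 1.68, 1.61 and 1.65 on knockdown arrays. All knockdown arrays lay below all control arrays, which 27.1% of all genes also showed. Dnmt1 was the only member that was lower at the adjusted p, by -0.19 (SE 0.045, 95% interval -0.30 to -0.07, limma adjusted p = 0.0406), or -12.2% on the linear scale.

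DNMT3A and DNMT3B are the de novo enzymes, and DNMT3B is the one known to methylate clustered protocadherin promoters in the early embryo. Dnmt3a signal (probe A_55_P2178084) was 0.97, 1.02 and 1.16 on control arrays and 1.27, 1.02 and 1.12 on knockdown arrays. The groups overlapped, and the change of 0.09 (SE 0.090, 95% interval -0.14 to 0.31, limma adjusted p = 0.551) had the widest interval of the 10 genes.

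Dnmt3b was read by 3 probes, which share the gene and are not replicates. Its brightest (A_55_P2130535) was 0.17, 0.23 and 0.11 on control arrays and 0.28, 0.24 and 0.35 on knockdown arrays, a change of 0.12 (SE 0.055, 95% interval -0.02 to 0.26, limma adjusted p = 0.186). The probe A_55_P1975903 was -0.04, -0.01 and -0.04 on control arrays and 0.18, 0.16 and 0.16 on knockdown arrays, a change of 0.20 (SE 0.039, limma adjusted p = 0.022). The dimmest (A_55_P2008874) was -1.38, -1.29 and -1.18 on control arrays and -1.02, -1.07 and -1.01 on knockdown arrays, a change of 0.25 (SE 0.065, limma adjusted p = 0.0501). All 3 probes were higher on every knockdown array than on any control array, and 1 of 3 passed the adjusted p. Averaged over its probes, Dnmt3b was higher by 0.19 (limma adjusted p = 0.0381), so whether the gene passed depended on how its probes were combined.

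None of the looping factors passed the adjusted p in the reported fit. CTCF is the zinc finger protein that marks loop anchors, and its binding at clustered protocadherin promoters and enhancers is blocked by DNA methylation. Ctcf signal (probe A_51_P513785) was 2.84, 2.84 and 2.92 on control arrays and 2.996, 2.87 and 2.89 on knockdown arrays. Only knockdown replicate 1 lay above the controls, and the change was 0.05 (SE 0.055, 95% interval -0.09 to 0.19, limma adjusted p = 0.542).

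RAD21 is the kleisin subunit that closes the cohesin ring. Rad21 signal (probe A_51_P384091) was 5.10, 5.04 and 5.11 on control arrays and 5.28, 5.22 and 5.19 on knockdown arrays, a change of 0.15 (SE 0.049, 95% interval 0.02 to 0.27, limma adjusted p = 0.0947). WAPL releases cohesin from DNA and so limits the length of loops. Wapl signal (probe A_55_P2021378) was 3.08, 3.21 and 3.12 on control arrays and 3.33, 3.25 and 3.38 on knockdown arrays, a change of 0.19 (SE 0.060, 95% interval 0.03 to 0.34, limma adjusted p = 0.0878). In both genes the groups were separate but the adjusted p was missed in the reported fit. Each passed in 3 of 19 other settings. These were quantile normalization, normexp with quantile normalization and an intensity trend, under which 33.8%, 37.2% and 42% of all genes passed.

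**Figure D2:**
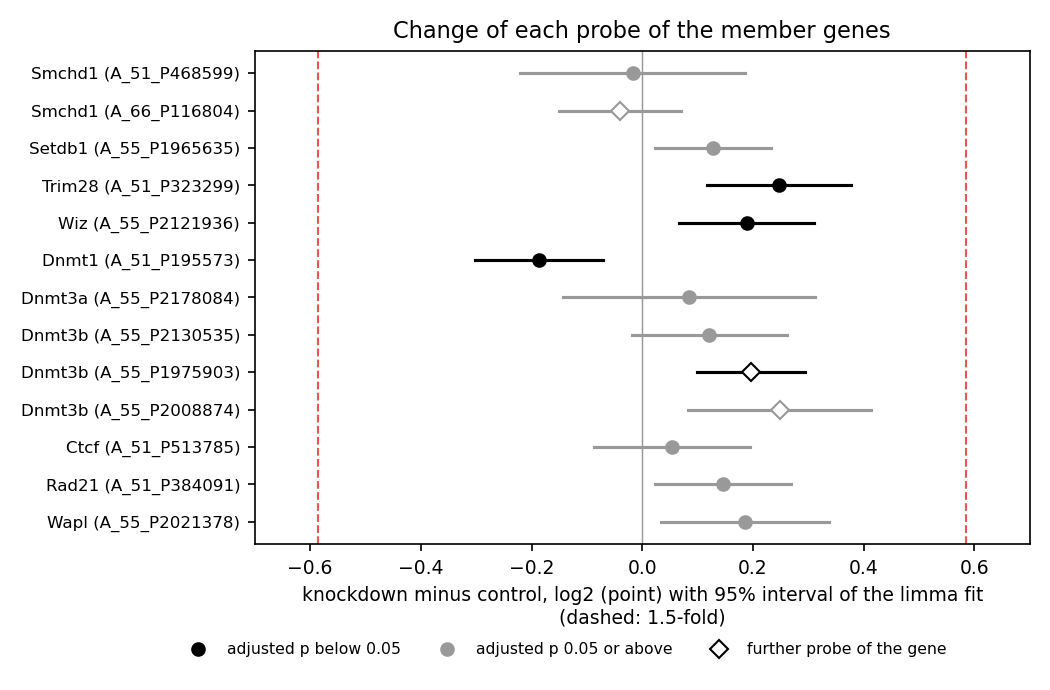
Knockdown minus control for all 13 probes of the 10 genes on the log2 scale, with the 95% interval of the limma fit. Black marks an adjusted p below 0.05, open diamonds are further probes of a gene, and dashed lines mark a 1.5-fold change at 0.585 on either side. All 13 intervals lie between the dashed lines.

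In 6 of 10 genes all knockdown arrays lay above all control arrays, against 27.7% of all genes. In 1 of 10 they lay below, against 27.1%. Groups without overlap in either direction were found for 54.7% of all genes. Counted by sign alone, 8 of 10 changes were above 0, beside 8370 of 16490 for all genes. For the 10 genes that count was 6 with arrays centred on their median and 9 under quantile normalization and both normexp settings. Centring on the median shifts all genes of an array alike, and with it the median change was -0.11 for all genes and 0.01 for the 10 genes. The median change was 0.16 for the silencing factors, 0.09 for the DNA methyltransferases and 0.15 for the looping factors. Averaged over the 10 genes, normalized signal was 2.82, 2.86 and 2.87 on control arrays and 2.995, 2.90 and 2.95 on knockdown arrays. Knockdown replicate 1 was the highest of the 6 arrays, and replicate 2 the lowest of the knockdown arrays.

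Trim28, Wiz and Dnmt1 each missed the adjusted p whichever of the 6 arrays was left out, while their changes moved little, from 0.21 to 0.28 for Trim28, 0.17 to 0.21 for Wiz and -0.21 to -0.17 for Dnmt1. Of all genes, 19.3% to 23.7% passed with 1 array left out, against 31.5% with all 6. Scaling and background correction moved the changes of Trim28, Wiz and Dnmt1 further. Trim28 differed by 0.13 with arrays centred on their median (limma adjusted p = 0.369) and by 0.33 under quantile normalization, where it passed. Wiz differed by 0.07 with median centring (limma adjusted p = 0.588) and by 0.24 under quantile normalization, where it passed. Dnmt1 differed by -0.30 with median centring (limma adjusted p = 0.0657), -0.15 under quantile normalization, -0.12 under normexp with the 75th percentile and -0.07 under normexp with quantile normalization (limma adjusted p = 0.384), and it passed in none of these.

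Slide row 2 held no control array, so with slide row as a block the estimate is that of knockdown replicate 1 alone against the 3 control arrays. It was 0.31 for Trim28 (limma adjusted p = 0.0719), 0.20 for Wiz (limma adjusted p = 0.184) and -0.15 for Dnmt1 (limma adjusted p = 0.243), and none of the 10 genes passed. With this block 11.5% of all genes passed. Replicates 2 and 3, in the other row, differed from the control mean in the same direction. Their average was 0.22 for Trim28, 0.18 for Wiz and -0.20 for Dnmt1. For Dnmt3a the values of replicate 1 and of replicates 2 and 3 were 0.22 and 0.02, and for Ctcf 0.13 and 0.02, so their positive changes were larger in replicate 1 than in replicates 2 and 3.

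In the reported fit and in all 19 other settings, the 95% interval of each of the 10 genes lay within 1.5-fold. The intervals ran from -0.30 to 0.38 in the reported fit, and over all settings from -0.51, with arrays centred on their median, to 0.57, within slide row 1.

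**Figure D3:**
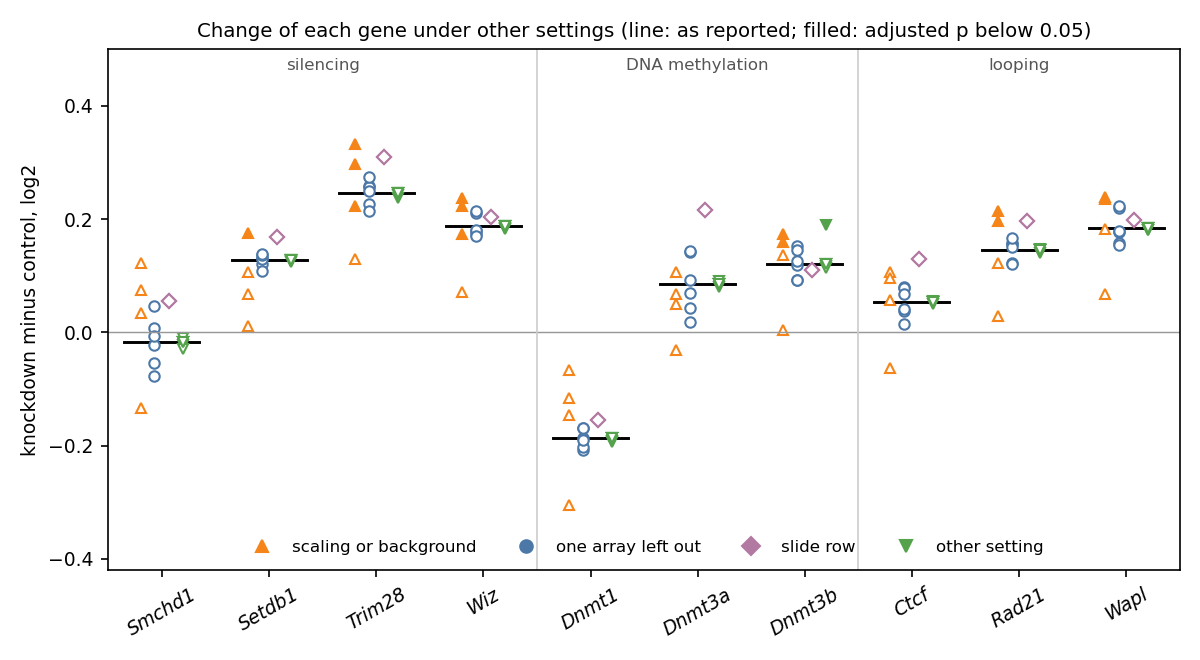
Knockdown minus control of each gene in log2 under the 19 other settings, with the reported value as a black line. Triangles pointing up are other scalings or background corrections, circles leave out 1 array, diamonds are fits by slide row, triangles pointing down are the remaining settings, and filled symbols have an adjusted p below 0.05. Trim28, Wiz, Setdb1, Dnmt3b, Rad21 and Wapl stay above 0 and Dnmt1 below 0 in all settings, while Smchd1, Dnmt3a and Ctcf cross it.

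The partners of these regulators, in lists also chosen with earlier results of these data known, showed mostly small differences in both directions. Among 22 partners of SETDB1, TRIM28 and H3K9 methylation, 6 were higher and 3 lower at the adjusted p, with a median change of 0.16, beside 15.7% and 15.8% of all genes. The number higher was 0 with arrays centred on their median (median change 0.04) and 10 to 12 under quantile normalization and both normexp settings. Of all genes, 20.4% passed in either direction with median centring and 33.8% to 37.2% under quantile normalization and both normexp settings. Atrx, the chromatin remodeller that deposits histone H3.3 with DAXX, was the only one called, at -0.63 (SE 0.083, limma adjusted p = 0.00644). Of all genes, 5.0% were called lower and 3.91% higher. Its further probes changed by -0.77 (limma adjusted p = 0.00139) and -0.30 (limma adjusted p = 0.108). Without control replicate 3 Atrx changed by -0.58 (limma adjusted p = 0.0224) and was no longer past 1.5-fold. Its change was also short of 1.5-fold, though past the adjusted p, in 3 settings. These were normexp with the 75th percentile (-0.47, limma adjusted p = 0.00136), normexp with quantile normalization (-0.49, limma adjusted p = 0.00271) and the mean of its probes (-0.56, limma adjusted p = 0.00289). With slide row as a block it was -0.54 (limma adjusted p = 0.0677).

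Of 16 DNA methylation partners, readers and erasers, 15 were tested (all but Tet1). At the adjusted p 3 were higher and 2 lower, beside 15.7% and 15.8% of all genes. None was called, and the median change was 0.04. The 5 genes that passed are named after their values were seen. Higher were Tet2, an eraser of DNA methylation, at 0.43 (limma adjusted p = 0.0252), Hells, a remodeller needed for DNA methylation, at 0.27 (limma adjusted p = 0.0091), and Mbd1, a reader of methylated DNA, at 0.23 (limma adjusted p = 0.0252). Lower were Mbd2, also a reader, at -0.57 (limma adjusted p = 0.0015), and Uhrf1, which brings DNMT1 to newly replicated DNA, at -0.17 (limma adjusted p = 0.0411). Mbd2 lay just short of the 1.5-fold threshold and passed it without knockdown replicate 3, at -0.59. It also passed with arrays centred on their median, at -0.68 (limma adjusted p = 0.0061), where the median change of all genes was -0.11. Of 16 cohesin and loop partners, 3 were higher and 3 lower at the adjusted p, beside 15.7% and 15.8% of all genes. Their median change was -0.04. Of these 16, 1 was called lower, beside 5.0% of all genes. The called gene was Ctcfl, the CTCF paralogue of the germ line, at -1.12 (SE 0.18, limma adjusted p = 0.0128). The mean intensity of Ctcfl was 31.6. Under normexp with the 75th percentile it changed by -0.31, short of 1.5-fold though past the adjusted p (limma adjusted p = 0.00399). It was not called without control replicate 1 (limma adjusted p = 0.0534). With slide row as a block the counts at the adjusted p were 0 higher in each of the 3 partner lists, and 0, 1 and 1 lower in the order given here. Without 1 array the SETDB1 and TRIM28 partners gave 1 to 4 higher, the DNA methylation partners 1 to 2 higher and the cohesin partners 0 to 2 higher. The share of all genes past the adjusted p in either direction was 11.5% with the slide row block and 19.3% to 23.7% without 1 array.

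The clustered protocadherin genes themselves were read on the same arrays. Of 58 genes listed, 34 were tested, 13 were called higher and 1 was called lower (3.91% and 5.0% of all genes), and the median change was 0.60. That median was 0.21 under normexp with the 75th percentile and 0.16 under normexp with quantile normalization. The median of the 10 regulators was 0.10 and 0.15 there. At the adjusted p, 16 of 34 protocadherin genes were higher and 1 lower as reported, beside 15.7% and 15.8% of all genes. Under those normexp settings 17 and 14 of 33 were higher, and 1 was lower in each. Of all genes, 35.3% and 37.2% passed there in either direction. All 13 genes called higher as reported belonged to the beta cluster, in which 21 of 22 genes were tested and the median change was 0.88. Only 7 of 14 alpha and 6 of 22 gamma genes were tested, with median changes of 0.10 and 0.21. Most genes without a test thus lay outside the beta cluster. Without a single array the number called higher ran from 10 to 13. It was 8 with slide row as a block and 5 after normexp background correction with the 75th percentile. Among all genes, 644 of 16490 were called higher as reported and 552 to 612 without a single array. With that block 494 of 16490 were called higher, and under that normexp setting 278 of 16615. Near-identical copies in the cluster can share probes, so single members are uncertain.

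**Figure D4:**
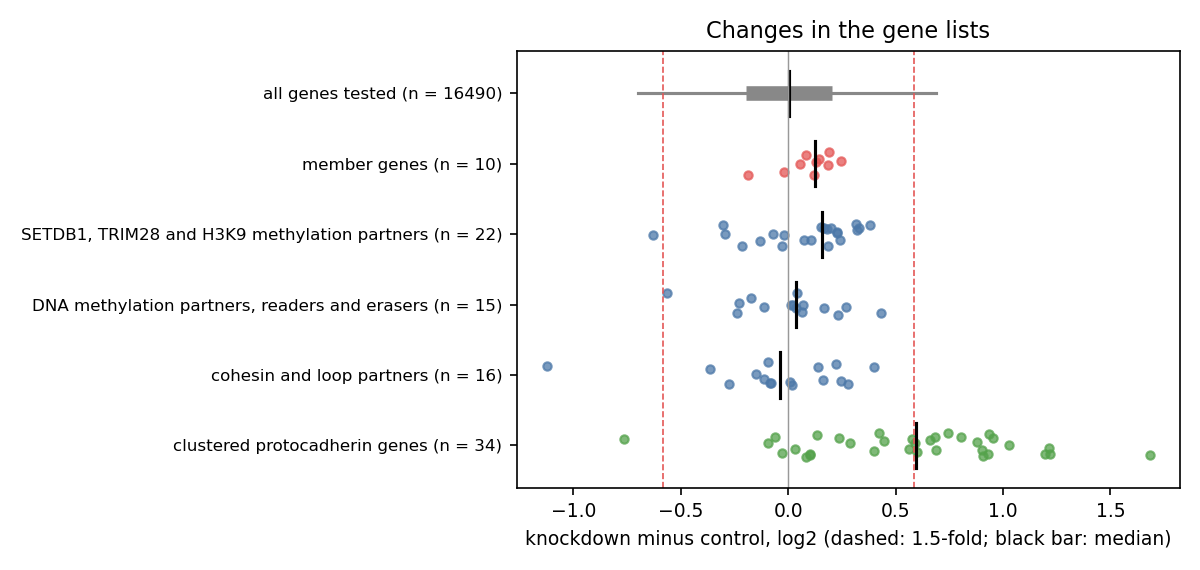
Knockdown minus control in log2 for each gene of the lists, 1 point a gene, with black bars at the medians and dashed lines at 1.5-fold. All genes tested are drawn as their middle 50% (thick bar) and 5th to 95th percentiles (thin line). The 10 regulators lie between -0.19 and 0.25, and the 34 clustered protocadherin genes have a median of 0.60.

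Promoter sequence was examined for the letters that NF-Y is known to bind. RefSeq windows (GRCm38.p6, 250 bases before to 50 after each annotated start) were found for 9 of 10 genes, 16 windows in all, with none for Rad21. CCAAT, read on both strands as CCAAT or ATTGG, was present in 6 of 16 windows (37.5%), against 37.4% of all 32851 windows. By gene, 4 of 9 (44.4%) had it in some window, namely Setdb1, Wiz, Dnmt1 and Wapl, against 41.1% of all 27025 genes. Of the 16490 genes tested, 13098 had a window. Among these, 55.8% of 660 called lower and 36.5% of 491 called higher held the letters, against 42.6% in all.

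Of the stretches that hold the letters, those before an annotated start are shown for Dnmt1 and Wiz, members that passed the adjusted p in opposite directions. Trim28, which also passed, has no match in its window (chr7:13023902-13024201, plus strand). Each stretch is written 5′ to 3′ on the gene's strand, which is the minus strand for both genes, and capitals mark CCAAT or ATTGG:
Dnmt1, chr9:20952842-20952869, first match 236 bases before a start: ccgccccctcCCAATTGGtttccgcgcg
Dnmt1, chr9:20952641-20952665, 32 bases before the same start: cgaggcatatATTGGgggtatctcc
Dnmt1, chr9:20960011-20960035, 137 bases before another start: ttcagagttcCCAATctaagcctgg
Dnmt1, chr9:20959946-20959975, first match 80 bases before that start: aacatctCCAATaccctgATTGGaaagcat
Dnmt1, chr9:20959902-20959926, 28 bases before that start: actctcaatgATTGGtgactgcctt
Wiz, chr17:32387976-32388000, 173 bases before a start: agtagaggtgATTGGattataatag
Wiz, chr17:32389546-32389570, 154 bases before another start: ttggccactcCCAATatggcggcgc

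Dnmt1 had 8 matches in 2 of its 3 windows, 7 of them in the stretches above and 1 at 17 bases after a start, more than any other of the 9 genes. In the first stretch CCAAT and ATTGG overlap by 2 bases, so the same letters are read on both strands and counted as 2 matches. The Dnmt1 windows with matches differ in composition, with a GC content of 69.7% and 33 CpG in one and 51.3% and 2 CpG in the other. Wapl had 2 matches, at 131 and 64 bases before its start, Setdb1 had 1 at the far edge of its window, and Wiz had 1 in each of 2 of its 4 windows. Of the 4 genes with the letters, Dnmt1 was lower and Wiz higher at the adjusted p, and Setdb1 and Wapl did not pass. A match is only a description of the letters, and no binding was measured in these data.

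**Figure D5:**
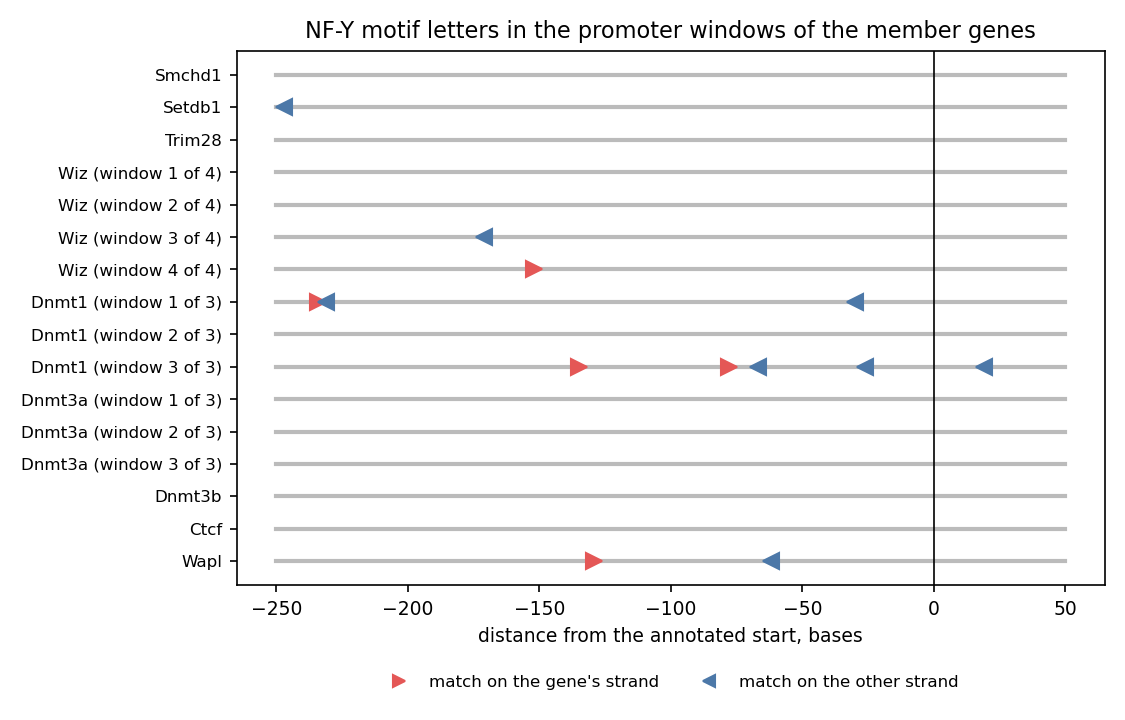
Positions of the 5-base NF-Y letters in the 16 promoter windows of 9 genes, in bases from the annotated start at 0. Each grey line is a window from 250 before to 50 after the start, and triangles point right for a match on the gene's strand and left for the other strand. Dnmt1 has 8 of the 13 matches, and 10 windows have none.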

How the data were processed

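Total RNA of 6 N2a samples was hybridized to single-colour Agilent SurePrint G3 mouse arrays. The authors ran Feature Extraction 10.10.1.1, and the deposited tables give each spot's background-corrected intensity, unlogged, with flags for outlier, saturated and well-above-background spots. The deposited series matrix holds log2 values, which matched the normalized values within 0.00761 over 43557 probes once each probe was centred, and served as an alternative. The study's methods name GeneSpring GX and removal of genes under the 20th percentile.

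Control and outlier spots were left out. Log2 processed intensity minus the array's 75th percentile was averaged per probe. A probe was tested if at or above the 20th percentile on all 3 arrays of a group. Groups came from sample titles and were fitted in limma 3.58.1 (R 4.3.3) by lmFit and eBayes, two-sided and without covariates, with Benjamini-Hochberg adjustment over 42126 probes. Accessions were named through RefSeq, which matched 21578 tested probes. The fit was tested on simulated data. The named genes are the 10 members with every probe, the NF-Y subunits, and called genes of 3 partner lists; 5 DNA methylation partners that were not called are named too, chosen after their values were seen. No member was called, so no genes of like profile are named. Members and lists were chosen with earlier results of these data known. Normexp (offset 50) used median spot signal, since the tables used hold no mean signal. Array number limits the precision.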

Additional observations from a re-analysis of the deposited data

How the results depend on the processing

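The number of members called stayed 0 in each direction under all 19 other settings of the fit and at a fold above 1.2, while with no minimum fold it was 1 lower and 2 higher. The number past the adjusted p alone was 3 as reported, beside 31.5% of all genes. It was 0 with arrays centred on their median and without the filter on dim probes, beside 20.4% of all genes in each. With the replicate block and with the slide row block it was also 0, beside 17.8% and 11.5% of all genes. It was 5 under quantile normalization, 5 under normexp with quantile normalization and 6 with an intensity trend. The shares of all genes there were 33.8%, 37.2% and 42%. With the deposited series matrix values the number was 2, without Wiz, beside 31.7% of all genes. It ran from 0 to 0 without 1 array, beside 19.3% to 23.7% of all genes. Smchd1 changed sign, never past the adjusted p, under quantile normalization (0.0349), normexp with the 75th percentile (0.0757), normexp with quantile normalization (0.122), the slide row block (0.0559), within slide row 1 (0.0559) and in 2 of 6 fits without 1 array (without control replicate 3 and without knockdown replicate 2), which ranged from -0.0768 to 0.0471. Centred on the median, Dnmt3a was -0.0316 and Ctcf -0.0628. The cause was not tested. Genes called lower took 56.1% of all calls as reported, 75.5% with arrays centred on their median and 67.7% after normexp. All 3 same-numbered control and knockdown arrays had deviations that correlated below 0.1 (0.0178, 0.0666 and 0.00246), so the numbers were not taken as pairs. Signal over background limited no member, since all 13 probes were well above it, and the number of arrays limits the precision.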
